A study of Caenorhabditis elegans with 2 samples.

Results

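The developmental transcription factor families examined here are the 149 protein-coding genes of Caenorhabditis elegans whose names begin with ceh, hlh, fkh, elt, ets, sox, tbx, zip, klf or sptf, out of 19973 nuclear protein-coding genes in the WBcel235 annotation. The members were taken by name, with hlh-30 left out, and the rule itself uses no measured value. They comprise 63 ceh genes (homeobox), 24 hlh genes (basic helix-loop-helix), 19 tbx genes (T-box), 12 zip genes (bZIP), 9 fkh genes (forkhead), 7 ets genes (ETS), 6 elt genes (GATA zinc finger) and 3 each of sox, klf and sptf genes. Sites of the zinc finger protein EGRH-3 at these genes were read from ChIP-seq peak lists of whole young adults, which were collected at 65 h after larvae had been synchronised by starvation following bleaching. All worms were of strain RW12196, in which CRISPR had placed a TY1, EGFP and 3xFLAG tag in the egrh-3 gene at its own locus on chromosome IV, and an antibody against GFP was used for the pull-down. The series held 1 group of 2 biological replicates and no second condition. Whole animals pool all tissues, so sites used in a few cells and sites used weakly in many cells cannot be told apart. The number of animals per replicate is not given in the sources used here.

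EGRH-3 belongs to the EGR (early growth response) family, whose mammalian members bind GC-rich sites through zinc fingers and act with NAB cofactors. The families surveyed act mostly in fate choice during embryonic and larval life: homeobox and basic helix-loop-helix factors set neuronal and muscle identities, GATA factors specify epidermis and intestine, forkhead and T-box factors pattern the pharynx and other organs, and bZIP factors include regulators of stress and immune responses. In worms, most genes have a compact promoter just upstream of the 5' end, and introns of regulatory genes can hold further control elements.

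A gene was counted when a peak summit fell between 1000 bp upstream of any of its annotated 5' ends and the end of the gene. A summit at most 1000 bp before or 200 bp after one of the gene's own 5' ends was called a promoter summit, and the remaining summits were placed in exons or introns of the gene itself. Signals are the authors' deposited values of peak strength, whose scaling is not stated, and they rank peaks within a list only. The nuclear peaks numbered 2194 in the conservative list, which rests on both replicates, 3254 in a larger list, 2850 in replicate 1's own list and 1439 in the list from replicate 2. No read counts were in the files used, so the depth is unknown. Intervals in parentheses are exact 95% binomial intervals over genes or summits, which are not independent replicates, and they cover counting error only. No list from untagged worms was analysed here, and the background enrichment at a summit was therefore not measured.

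The DNA under the strongest conservative summits is shown first, because the members with a summit turned out to be few and their sites differ in sequence. The 3 strongest promoter summits and both intron summits are given on the plus strand of WBcel235, centred on the summit unless stated. Below them is the summit upstream of an internal 5' end of sox-2 from the larger list, chosen after its values were seen, since it alone held an EGR-type motif. Capitals mark matches to GTGGGCG or GTGGGTG on either strand. The hlh-11 stretch is chrIII:9619518-9619618, that of zip-12 is chrIII:12327632-12327732, and that of ceh-39 is chrX:1856296-1856396. The elt-3 stretch is chrX:13935765-13935865 and that of sox-2 is chrX:7460686-7460786. The ets-5 stretch, chrX:5077962-5078034, was cut at the annotated 5' end of the neighbouring gene cal-5.
hlh-11: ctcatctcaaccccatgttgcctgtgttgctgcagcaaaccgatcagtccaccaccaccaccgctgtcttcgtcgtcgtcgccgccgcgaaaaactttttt
zip-12: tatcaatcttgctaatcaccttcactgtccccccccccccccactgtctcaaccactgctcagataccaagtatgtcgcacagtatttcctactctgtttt
ceh-39: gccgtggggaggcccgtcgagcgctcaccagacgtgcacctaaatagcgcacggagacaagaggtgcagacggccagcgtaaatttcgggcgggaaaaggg
elt-3: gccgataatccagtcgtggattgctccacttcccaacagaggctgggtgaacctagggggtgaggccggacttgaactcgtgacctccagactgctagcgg
ets-5: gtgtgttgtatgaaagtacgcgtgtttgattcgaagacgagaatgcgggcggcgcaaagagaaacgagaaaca
sox-2: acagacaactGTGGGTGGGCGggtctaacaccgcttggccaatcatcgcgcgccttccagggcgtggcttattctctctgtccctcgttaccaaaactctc
Counting 50 bp to each side of the summit, GC made up 55.4% of bases at hlh-11, 48.5% at zip-12, 63.4% at ceh-39, 59.4% at elt-3 and 50.5% at ets-5. The hlh-11 stretch holds runs of trinucleotide repeats in its middle, and the zip-12 stretch holds an unbroken run of cytosines beside its summit. None of the 10 member summits of the conservative list held GTGGGCG or GTGGGTG in the 101 bases around it, and 71 of all 2194 summits did (3.24%). The sox-2 summit held 2 overlapping matches, 1 of each spelling, and was the only member summit among the 15 in the larger list with either motif, against 115 of 3254 summits of that list (3.53%). A missing match says only that these letters are not in the window.

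EGRH-3 summits were found at 9 of the 149 transcription factor genes in the conservative list: hlh-11, zip-12, ceh-39, zip-11, ceh-2, elt-3, ets-5, elt-6 and tbx-2. That was 6.04% of the members (2.8 to 11.2), and 8.12% of all protein-coding genes had a summit by the same rule, so the members' share was near the background. The 9 genes carried 10 summits, and no summit was counted for 2 members. In the larger list 15 members had a summit (10.1%, background 11.5%), replicate 1's own list had 11 (7.38%, background 9.82%), and the list from replicate 2 had 4 (2.68%, background 5.7%). Without replicate 1 the count thus fell to 4 from the 9 of the conservative list. In all, 17 members had a summit in any of the 4 lists (11.4%, background 12.9%), and 4 had one in all 4 lists (2.68%, background 4.44%). The share of members was below the background in each of the 4 lists, and the interval of the members included the background in all 4.

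**Figure D1:**
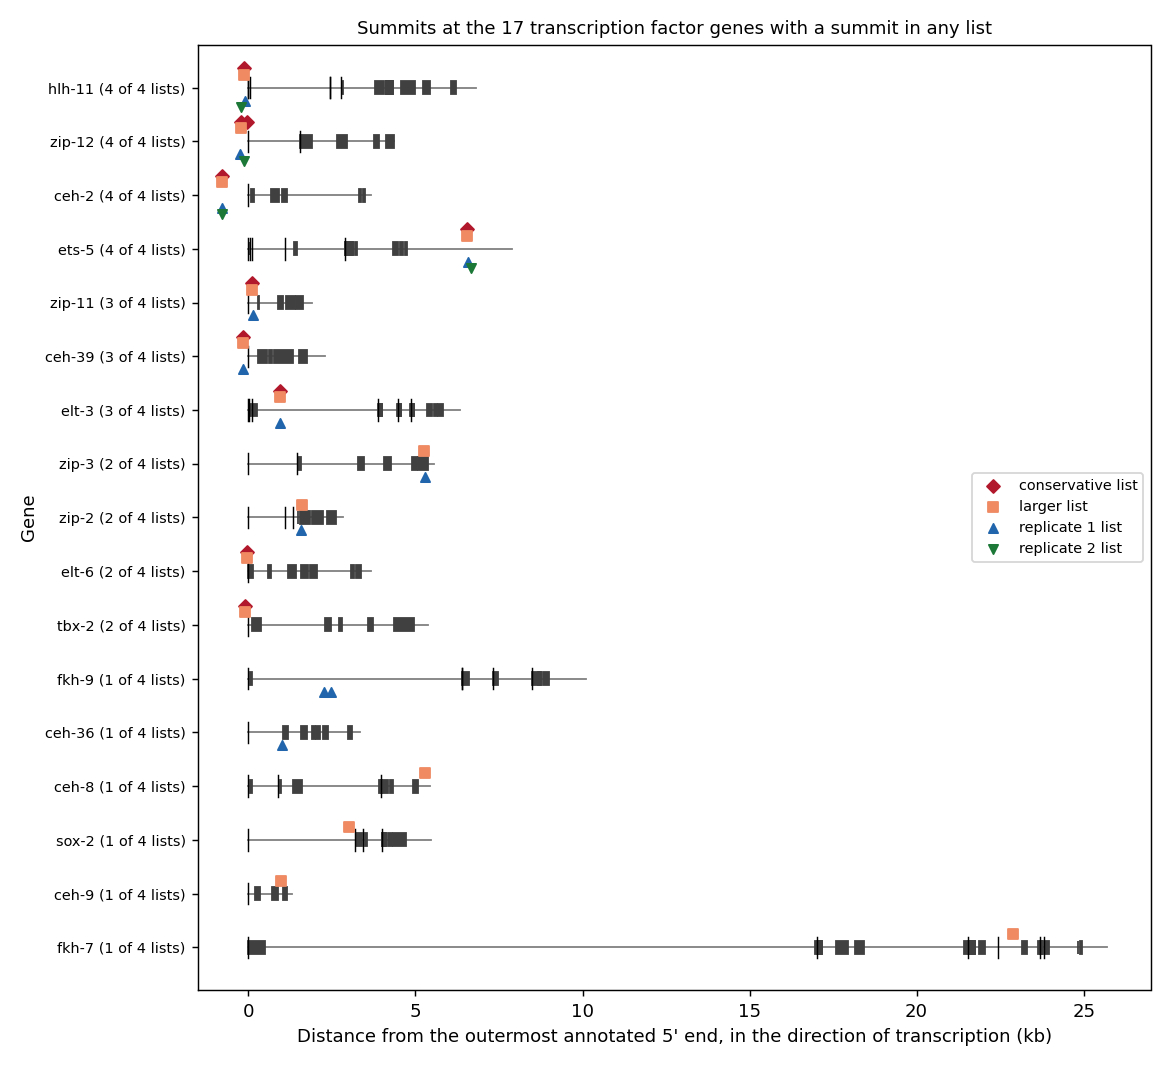
Position of each summit at the 17 member genes with a summit in any of the 4 lists, in kb from the outermost annotated 5' end in the direction of transcription. Grey lines are genes, dark boxes coding exons, vertical ticks annotated 5' ends, and symbols the summits of each list; 4 genes at the top have a summit in all 4 lists, and most conservative summits lie just upstream of the first 5' end.

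Among the families as named here, elt (GATA) and zip (bZIP) genes had the highest shares in the conservative list, on few genes. Family members under other names are not in these counts and are given further below. There, 2 of 6 elt genes, 2 of 12 zip genes, 1 of 7 ets genes, 1 of 19 tbx genes, 1 of 24 hlh genes and 2 of 63 ceh genes had a summit. No fkh, sox, klf or sptf gene had a conservative summit, 18 genes in all. Across the 4 lists together the zip count rose to 4 of 12 (33.3%, 9.92 to 65.1) and the ceh count to 5 of 63 (7.94%, 2.63 to 17.6), with 2 of 9 fkh genes and 1 of 3 sox genes added. The klf and sptf genes, zinc finger families whose mammalian relatives also bind GC-rich DNA, had no summit in any list, where 12.9% of all genes did. They are 6 genes in all, and the interval for each family runs from 0% to 70.8%, so the absence says little about them. The intervals of the families overlapped each other in both counts, and each family's interval for the conservative list included the 8.12% of all genes. The families also differ in how much DNA was searched: the median region was 2.47 kb for hlh genes and 2.85 kb for tbx genes, 3.65 kb for ceh genes, 3.8 kb for zip genes, 4.04 kb for elt genes and 6.29 kb for klf genes.

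**Figure D2:**
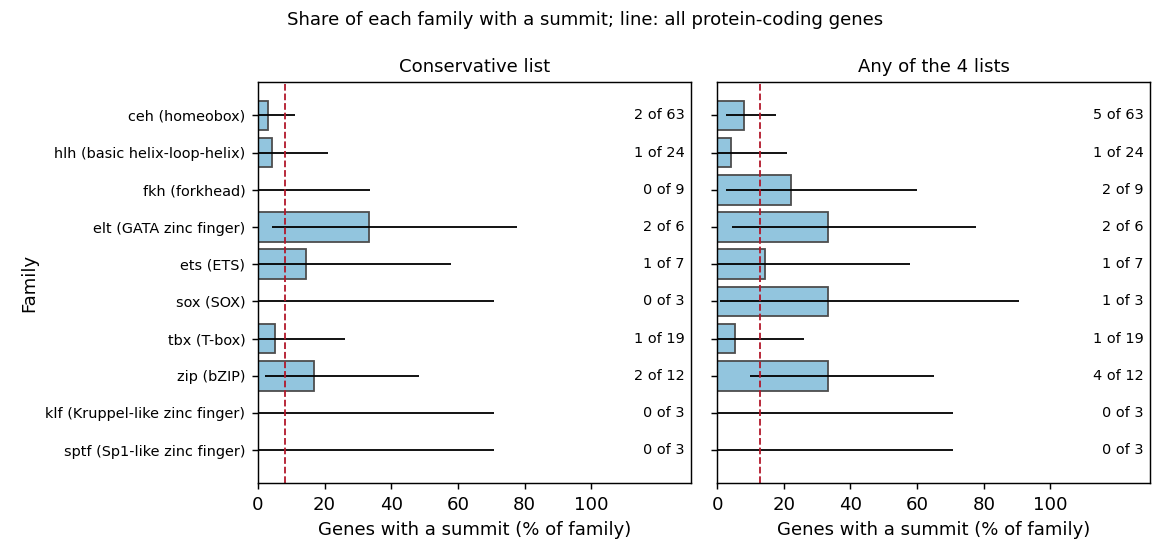
Percent of each family with a summit in its region, in the conservative list and in any of the 4 lists, with exact 95% binomial intervals as lines and counts at the right. The dashed line is the share over all 19973 protein-coding genes, 8.12% and 12.9%; the elt, ets and zip bars pass it in both panels and the others do so in neither, except fkh and sox in the second.

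Promoters held most of the conservative member summits. Of the 10 summits, 8 were promoter summits, at 7 genes (4.7% of members, background 4.86%), and 2 were intron summits, at 2 genes (1.34%, background 1.63%). No member had a summit in a coding exon in this list, where 2.22% of all genes did. The promoter share of summits was 80% (44.4 to 97.5) for the members. It was 50.5% (48.1 to 52.9) over the 1675 summits in the region of any protein-coding gene. That second share took a summit's first class over every gene whose region held it. The ets-5 summit, in the promoter window of cal-5, thus counted as intron among members but as promoter there. Per length of DNA summed over genes, members had 33.4 gene and summit pairs per Mb of promoter window and 8.24 per Mb of intron. All genes had 36.4 and 13.6. A summit in the windows of several genes counts once for each there, so the 1060 promoter pairs of all genes came from 846 summits. Promoter windows and introns took up alike amounts of the members' DNA, at 0.239 and 0.243 Mb. In the larger list 9 of 15 member summits were in promoters (60%, against 46.6% over all genes' summits), at 9 genes (6.04% of members, background 6.57%), and 3 were in introns, at 3 genes (2.01%, background 2.64%). The promoter summits at sox-2 and fkh-7, new in that list, lay inside the gene and counted through internal 5' ends. In the list of replicate 1 the promoter share was lower, with 5 of its 12 member summits in promoters (41.7%, against 42% over all genes' summits) and 4 in introns. Those promoter summits were at 5 genes (3.36% of members, background 5.03%) and the intron summits at 3 genes (2.01%, background 2.32%). Of the 4 summits from replicate 2, 3 were in promoters (75%, against 55.4% over all genes' summits), at 3 genes (2.01%, background 3.6%), and 1 was in an intron (0.671%, background 1.13%).

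**Figure D3:**
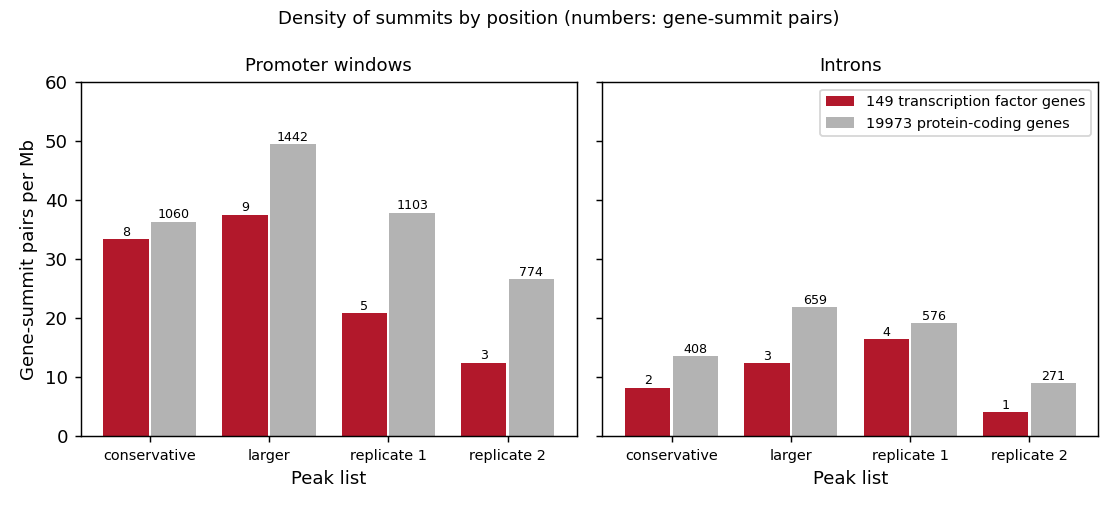
Gene and summit pairs per Mb of promoter window (left) and of intron (right) in each of the 4 lists, for the 149 transcription factor genes and for all protein-coding genes, with the number of pairs above each bar. Members are below all genes in every list at both positions, on 1 to 9 pairs per bar.

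The strongest member summit stood upstream of hlh-11 (WBGene00001955, chromosome III, 9619711 to 9626529, plus strand), which encodes a basic helix-loop-helix factor related to mammalian TFAP4. The peak spans 9619313 to 9619767, and its summit base, 9619568, lies 143 bp before the 5' end, in the sequence shown above. The signal in the replicates' own ranked lists was 251 in replicate 1 and 125 in replicate 2. Its conservative signal of 336 ranked 322 of 2194 nuclear peaks. The peak was in all 4 lists, and replicate 1 placed its summit 115 bp upstream and replicate 2 placed it 230 bp upstream. The nearest 5' end of another protein-coding gene, that of hcp-3, lay 3098 bp away.

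At zip-12 (WBGene00013560, chromosome III, 12327914 to 12332275, plus strand) the replicates placed their summits at different bases. The conservative list held a summit at 12327682, 232 bp upstream, with a signal of 198, and a weaker one at 12327885, 29 bp upstream, with a signal of 57.5. The peak of replicate 1 had a signal of 155 and its summit at 12327670. That of replicate 2 had a signal of 70.2 and its summit at 12327784. The interval of replicate 2 lay within that of replicate 1. It covered neither conservative summit, and the interval of replicate 1 covered the first only. The gene counted as present in all 4 lists, although the peaks do not share a summit. Y75B8A.63, annotated on the same strand, begins just inside zip-12, with its 5' end 265 bp downstream of the first summit, so the same summits fell in the promoter windows of both genes.

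The other bZIP gene with a conservative summit was zip-11 (WBGene00021082, chromosome IV, 3311276 to 3313189, plus strand). Its summit at 3311398 lay 122 bp downstream of the 5' end, inside the 5' UTR, with a signal of 162 and a GC content of 65.3%. Replicate 1 gave a ranked signal of 139 and replicate 2 one of 41.8, a ratio of 3.32, and replicate 1 kept the peak past its own threshold while replicate 2 did not.

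Both homeobox genes with a conservative summit had it upstream of the 5' end. ceh-39 (WBGene00000460, chromosome X, 1853874 to 1856172, minus strand) encodes a ONECUT homeobox factor that counts as an X signal element in worm sex determination. Its summit at 1856346 lay 174 bp upstream with a conservative signal of 186, and the ranked signals were 117 in replicate 1 and 67.1 in replicate 2. Replicate 1 kept it in its thresholded list and replicate 2 did not. ceh-2 (WBGene00000429, chromosome I, 6046788 to 6050451, minus strand), a relative of the EMX genes, had its summit at 6051245, 794 bp upstream, with a conservative signal of 143. The ranked signals were 84.3 in replicate 1 and 56.1 in replicate 2, and all 4 lists held the peak. That summit lay 9 bp from an annotated tRNA gene, WBGene00022946, which is closer to it than ceh-2 is. Whether the tRNA gene has a part in the peak was not tested.

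The remaining promoter summits were weaker and absent from both replicates' own thresholded lists. At elt-6 (WBGene00001253, chromosome IV, 1917977 to 1921643, plus strand), a GATA factor of the epidermal seam and the vulva, the summit at 1917942 lay 35 bp upstream with a conservative signal of 101. The ranked signals were 58.9 in replicate 1 and 49.5 in replicate 2. At tbx-2 (WBGene00006543, chromosome III, 5130923 to 5136296, minus strand), a T-box factor of pharyngeal muscle, the summit at 5136409 lay 113 bp upstream with a conservative signal of 91.8. The ranked signals were 53.4 in replicate 1 and 34.5 in replicate 2. Both peaks were in the conservative and the larger list only.

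The 2 intron summits differed in their surroundings. elt-3 (WBGene00001251, chromosome X, 13934874 to 13941216, plus strand) encodes a GATA factor of the epidermis. Its summit at 13935815 lay 819 bp downstream of the nearest own 5' end, in a stretch of 3622 bp without an exon, and no other protein-coding 5' end was within 6181 bp. The conservative signal was 142, and the ranked signals were 107 in replicate 1 and 35.9 in replicate 2, with the peak in the thresholded list of replicate 1 alone. ets-5 (WBGene00016600, chromosome X, 5076635 to 5084526, minus strand) encodes an ETS factor of the carbon dioxide sensing BAG neurons. Its summit at 5077984 lay 3639 bp from the nearest own 5' end in an intron-like stretch of 2946 bp, and 23 bp upstream of the 5' end of cal-5, a calmodulin-like gene. The conservative signal was 106, the ranked signals were 57.6 and 51.3 in replicates 1 and 2, and all 4 lists held the peak. When a summit was given only to the gene with the nearest 5' end, ets-5 no longer counted and elt-3 was the sole member with an intron summit.

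Further members appeared outside the conservative list, and their summits lay at more varied positions. The larger list added zip-3, zip-2, ceh-9, sox-2, ceh-8 and fkh-7, with signals from 68.1 to 147. zip-3, which in worms limits the mitochondrial stress response, had a summit in a coding exon at 13952191 on chromosome II with a signal of 147. Its thresholded peak in replicate 1 had a signal of 133, and no ranked region of replicate 2 covered the summit. zip-2, a bZIP factor of the response to bacterial infection, had a coding exon summit at 834594 on chromosome III with a signal of 84.1, and the ranked signals there were 70.2 in replicate 1 and 14.2 in replicate 2. The summits of both were also in the list of replicate 1. sox-2, a SOX factor of neural progenitors, had a summit at 7460736 on chromosome X, inside an intron of the gene and 188 bp upstream of an internal 5' end, with a signal of 75.5 and ranked signals of 41.8 and 28.2. The ceh-8 summit at 8245663 on chromosome I lay in the 3' UTR of ceh-8 and 700 bp upstream of the collagen gene col-63. The fkh-7 summit at 5607576 on chromosome IV, with a signal of 68.1, lay 22.9 kb from the outermost 5' end. It was in an exon of the gene, 787 bp upstream of an internal 5' end and 445 bp downstream of another, nearer one. The list of replicate 1 added fkh-9, with 2 intron summits on chromosome X, the stronger at 3824503 with a signal of 67.3, and ceh-36, an OTX-type homeobox gene of sensory neurons, with a 5' UTR summit of signal 46.1. The list of replicate 2 added no member: its 4 genes, hlh-11, zip-12, ceh-2 and ets-5, were all in the conservative list.

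The deposited values were larger in replicate 1 at 8 of 8 conservative member summits with a value in both replicates. The ratios ran from 1.12 to 3.32 with a median of 1.65. Over the 2070 summits of the whole conservative list with both values, ratios ran from 0.128 to 42.9 with a median of 1.64. The members' median was thus near that of the whole list, where summits with a larger value in replicate 1 were not counted. As the scaling is not stated, the ratios do not measure a difference in binding between the replicates. Member summits had a median signal of 142 against 140 for all nuclear conservative summits, and a median GC content of 55.4% against 57.4%. The strongest member signal was 336. The highest was 2133.8 over the 1675 summits in the region of any protein-coding gene and 5852.3 over all 2194 nuclear summits. With 10 member summits, these maxima are taken over very unlike numbers of summits.

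Below the threshold, regions in the authors' ranked lists, which hold weak and irreproducible peaks as well, were also read at all members. A ranked summit lay in the region of 68 members in replicate 1 (45.6%, background 47.7%), of 79 in replicate 2 (53%, background 51.8%) and of 50 in both (33.6%, background 37.6%). The median of the strongest ranked signal was 23.6 in replicate 1 and 19.7 in replicate 2 for members with one, against 23.2 and 21.1 over all genes. Of the 132 members in none of the 4 lists, 34 had a ranked summit in both replicates and 52 in neither. Over all members, 52 of 149 had one in neither replicate, and over all genes 7620 of 19973 did. The 34 were not set beside a count over all genes outside the 4 lists. Signals of the 132 members reached 43.8 in replicate 1, at zip-7, and 48.9 in replicate 2, at ceh-24. elt-2, the main GATA factor of the intestine, was among them with 25.7 and 20.8, and elt-1, which specifies the embryonic epidermis, with 29.3 and 8.97. By family, ranked summits in both replicates were at 9 of 12 zip genes, 4 of 6 elt genes, 2 of 3 sptf genes and 3 of 7 ets genes. They were at 21 of 63 ceh genes, 1 of 3 klf genes, 1 of 3 sox genes and 2 of 9 fkh genes. The hlh genes had them at 4 of 24 and tbx genes at 3 of 19, where all genes had 37.6%.

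**Figure D4:**
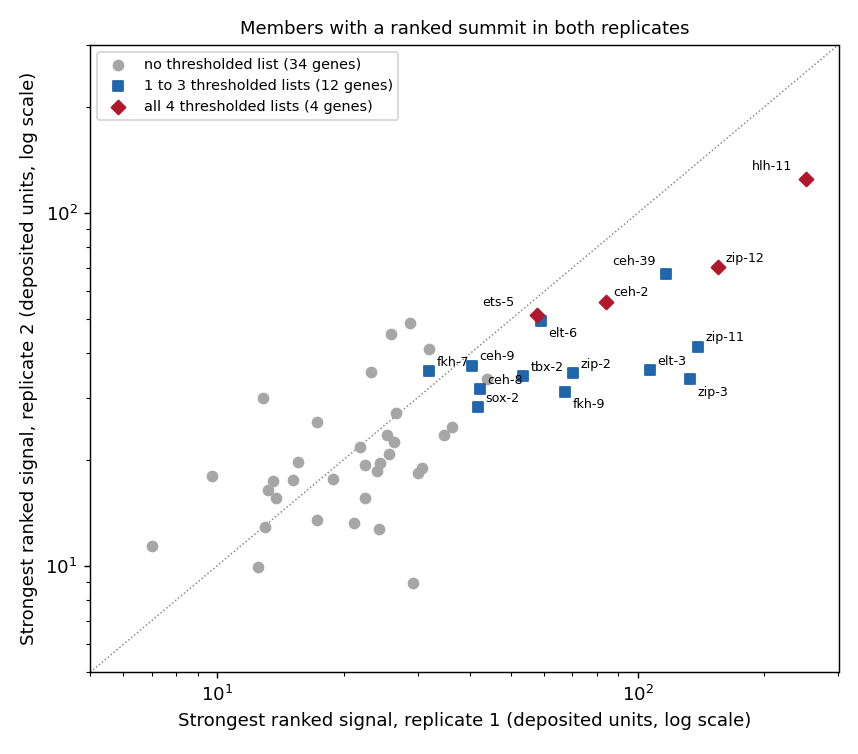
Strongest ranked signal in replicate 1 (horizontal) and replicate 2 (vertical) at the 50 members with a ranked summit in both, on log axes in the deposited units; the dotted line marks equal values, and the 2 values of a gene can come from different positions in its region. The 4 genes in all 4 thresholded lists are at 51.3 or more in replicate 2, and hlh-11 is the highest in both replicates. ceh-39, at 67.1 in replicate 2, is also above that value but is not in the thresholded list of replicate 2.

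Among members, the share with a conservative summit was higher where the searched region was longer, on few genes. Genes with a conservative summit made up 0 of 35 members with regions up to 2.46 kb, 2 of 53 with regions between that length and 3.92 kb, and 7 of 61 with longer ones. The shares were 0%, 3.77% and 11.5%, where all genes had 6.53%, 4.99% and 12.8% in the same length ranges. Over all genes the share was thus lowest in the middle range. Members were slightly longer than genes in general, with a median region of 3.29 kb against 3.03 kb. The part of length in the counts was not tested. By chromosome, the 9 genes lay on III (3), X (3), IV (2) and I (1), out of 27, 41, 20 and 14 members there. Over all genes, the shares on these chromosomes were 10.1%, 7.87%, 8.32% and 11.3%. None of the 26 members on chromosome II, where 6.84% of all genes had a conservative summit, or of the 21 on chromosome V, where 6.11% did, had one, and these numbers are too small to set the chromosomes apart.

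Genes of the same families that carry other names were set beside the members from a list of known family members. Of 82 such genes found in the annotation, 12 had a conservative summit (14.6%, 7.8 to 24.2), against 6.04% of the members and 8.12% of all genes. By family they were 2 of 2 ETS genes (lin-1 and ast-1), 1 of 5 GATA, 3 of 16 basic helix-loop-helix and 1 of 6 forkhead genes. The rest were 2 of 14 bZIP and 3 of 35 homeobox genes, with 0 of 2 SOX and 0 of 2 T-box genes. The order of the families by share was thus not that of the members, again on few genes. Promoter summits were at 5 of the 82 (6.1%, background 4.86%) and intron summits at 5 (6.1%, 2.01 to 13.7, background 1.63%). In any of the 4 lists 20 had a summit (24.4%, 15.6 to 35.1, background 12.9%). The intron and any-list intervals of these genes thus lay above the background, and their median region was 5.33 kb against 3.03 kb for all genes. The strongest were at atf-6, a bZIP factor of the endoplasmic reticulum stress response, 303 bp upstream with a signal of 803, at mdl-1, a basic helix-loop-helix factor of the MAD type, 33 bp upstream with 261, and at the neuronal homeobox gene unc-42, 14 bp upstream with 210. egl-18, the GATA gene that neighbours elt-6 and shares its roles in the seam and vulva, had an intron summit with a signal of 130. Among 269 nuclear hormone receptor genes named nhr, another large family of worm transcription factors, 21 had a conservative summit (7.81%, 4.9 to 11.7). Of these, 13 had one in a promoter (4.83%, background 4.86%) and 8 had one in an intron (2.97%, background 1.63%). nhr-48 had both, and nhr-88 had one in its 3' UTR only. The differences between these sets were not tested, and the intervals of the members and of both other sets overlapped.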

How the data were processed

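The data were ENCODE peak lists of 2 biological replicates. Per the file headers and names, all are on ce11, which is WBcel235. Which aligner and peak caller were used is not given in the sources used here. The deposited lists hold for each peak a signal (strength, scaling not stated) and an integer score of at most 1000, set by the irreproducible discovery rate (IDR). The authors had applied the IDR threshold, and 830 is the lowest deposited score. The −log10 global IDR of a ranked list, a deposited score, was used for the stricter setting. One further ranked list was not used. All peaks lay within the chromosome ends of the RefSeq WBcel235 genome.

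Genes came from Ensembl release 115, and summits were assigned to them with pandas 2.3.3 and numpy 2.4.6 under Python 3.11.15. Binomial intervals came from scipy 1.17.1. On simulated summits drawn from the same annotation, the assignment returned the position class they were drawn from. That checks how the rule was coded and not which of several neighbouring genes a summit belongs to. A summit took the first class that held it among promoter, 5' UTR, coding exon, 3' UTR and intron of its own gene. For shares over all genes' summits, it took the first class over every gene whose region held it. Replicate signals at a summit are those of the strongest ranked region that covers it. With 1 group and 2 replicates no test between conditions was possible, and gene sets were described by counts beside the same count over all genes.

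The genes named with values are the members with a conservative promoter or intron summit and those in other lists that stood for families with none; the other genes of single lists, the members without a summit and the comparison genes were chosen after their values were seen. The members and lists were chosen with earlier results of these data known. The DNA at the ceh-2 summit is not shown. The list of other names held 83 genes, of which 82 matched. Alternatives were the larger list, each replicate alone, a stricter IDR, stronger peaks, other windows, peak midpoints, the nearest 5' end and interval overlap; leaving out summits in another gene's promoter window was chosen after seeing the data.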

Additional observations from a re-analysis of the deposited data

How the results depend on the processing

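Over 11 alternatives, the ratio of the members' share with a summit to that of all genes ran from 0.471 to 0.922 around the main 0.744, below 1 under each and within the interval of the main value (0.345 to 1.37). The count of 9 members ranged from 4 to 11 when one replicate's list was used alone, was 15 in the larger list and 4 at a global IDR under 0.001. The count of 7 members with a promoter summit ranged from 3 to 5 with one replicate alone and was 4 at that IDR. The 2 members with an intron summit ranged from 1 to 3 with one replicate alone, fell to 0 at that IDR, and were 1 among peaks at or above the median signal, with the nearest 5' end only, and without summits in another gene's promoter window. The promoter share of 80% ranged from 41.7% to 75% with one replicate alone and was 100% at that IDR, on 5 summits. The stricter lists hold fewer peaks by construction. The 15 genes of the larger list include all 9 of the conservative list, while the list of replicate 1 shares 7 and that of replicate 2 shares 4. Of the 55 recomputed values, 43 stayed within 1.5 times the main count or within its interval, among them some of those given above. The 12 that did not were 5 of the intron count, 3 of the count of members, 2 of the promoter count and 2 of the promoter share. No paired analysis was possible because the series has 1 group.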

Other observations

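The elt-3 intron summit, shown with its sequence above, held the letters GTTCAANNC on the minus strand, where N is any base. GTTCGANNC and GTTCAANNC are spellings of the B box, the internal promoter element of tRNA genes read by RNA polymerase III factors. These letters were searched on both strands after the sequence had been seen. They stood within 50 bp of 97 of all 2194 conservative summits (4.42%), of 45 of the 115 summits within 100 bp of a tRNA gene (39.1%) and of 52 of the 2079 others (2.5%). No annotated tRNA gene lay within 74438 bp of the elt-3 summit. The ceh-2 summit, 9 bp from a tRNA gene, did not hold them in its window, and no other member summit of the 4 lists did.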
